A study of Mus musculus with 6 samples.

Results

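The matrix metalloproteinases, the zinc-dependent enzymes that cut extracellular matrix, and the tissue inhibitors that block them were examined in differentiating myoblasts of a myotonic dystrophy type 1 (DM1) model. The 10 genes, 7 metalloproteinases (Mmp2, Mmp3, Mmp9, Mmp10, Mmp13, Mmp14 and Mmp19) and 3 inhibitors (Timp1, Timp2 and Timp3), were found by their gene names among 55421 gene identifiers, and each had 1 row. Of these 10 genes, 8 had enough counts to be tested, while Mmp3 and Mmp9 did not reach the count filter. The cells were C2C12, a mouse myoblast line, in which every culture carried a stably integrated plasmid with GFP followed by the CUG200 repeat, the expanded repeat RNA that models DM1. The Control cells also carried an empty vector, and the miR-322/-503 cells carried a vector expressing the microRNAs miR-322 and miR-503, and 3 RNA-seq libraries of each were made on day 4 of differentiation. Each group was a single stable line, so that a difference between the lines and an effect of the microRNAs cannot be told apart, and the p-values below measure only the spread between the 3 libraries of each line.

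Metalloproteinases are made as inactive precursors, and most are secreted, whereas the membrane-type enzymes stay on the cell surface. Mmp14, a membrane-type enzyme, activates the Mmp2 precursor in a complex in which Timp2 holds Mmp2 to the surface, so Timp2 can take part in activation as well as in inhibition. In skeletal muscle these enzymes are known for remodelling the basement membrane during myoblast migration, fusion and repair.

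The sequences of the microRNAs show what the miR-322/-503 cells were given. Both are printed from 5′ to 3′ from RefSeq (GRCm38.p6), with the seed, bases 2 to 8, in capitals. They lie on the minus strand at chrX:53054306-53054327 and chrX:53054027-53054049.
miR-322-5p: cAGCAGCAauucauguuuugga
miR-503-5p: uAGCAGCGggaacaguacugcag
The seeds share their first 6 bases, and the sequence that pairs with these, GCTGCT, was searched in the longest annotated 3′ untranslated region of each gene (GENCODE M21, GRCm38). All 10 genes had such a region, and 2 of them held a match, Mmp2 and Mmp19, each 1 match that extended to all 7 seed bases of miR-322. Among 13409 tested genes with such a region, 45.2% held the 6-base match and 24.4% the 7-base match to miR-322. The matches are shown because one lies in the gene with the lowest fold change among the 8 tested and the other in a gene that did not pass the test. Both are on the plus strand, with the 7 paired bases in capitals. The printed stretch of Mmp2 lies at chr8:92852844-92852865, and its GCTGCT starts at position 187 of a region of 755 bases. That of Mmp19 lies at chr10:128800090-128800111, and its GCTGCT starts at position 998 of 1724 bases.
Mmp2 match: tcccgggTGCTGCTtctccttc
Mmp19 match: acagatcTGCTGCTcaggggaa
The longest such regions among the inhibitors, 3604 bases in Timp3 and 2630 bases in Timp2, held no match to these letters. Whether any match was bound by either microRNA was not measured here.

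The libraries held 78219596 to 86470394 estimated counts in Control and 73532084 to 92157388 in miR-322/-503, where 1 read pair gave about 4 counts. A gene with at most 12 counts, about 3 read pairs, was read as near the detection limit, and bounds taken from that floor cover counting error only. The rows of the microRNA precursors themselves held 1 to 7 (Mir322) and 1 to 2 (Mir503) counts in Control and 0 to 17 and 4 to 6 counts in miR-322/-503, so these libraries, which were not made for mature microRNAs, gave little check of the overexpression. Skeletal muscle markers were detected for 10 of 10 genes, with a summed level of 2452 to 2593 CPM (estimated counts scaled to a common library total) in Control and 3048 to 3342 CPM in miR-322/-503. Des alone was at 1093 to 1214 CPM in Control and 1732 to 1839 CPM in miR-322/-503, while Myog was lower (log2 fold change -0.74, adjusted p = 0.000665, edgeR), and of the 10 markers 6 were higher and 1 lower at an adjusted p under 0.05. Marker counts here and below are to be read beside the 13.2% of all tested genes that were higher and the 15.5% that were lower by adjusted p. Fibroblast markers, of which 7 of 9 were above 12 counts in a library, summed to 692 to 767 CPM in Control and 454 to 481 CPM in miR-322/-503. Of that list 4 genes, Lum, Cd34, Pdgfra and Dcn, were lower and 1, Dpt, was higher by adjusted p (log2 fold change 0.94 for Dpt, adjusted p = 0.00295, edgeR). The largest difference in mean CPM was that of Cd34, from 247.3 in Control to 82.98 in miR-322/-503, beside 370.0 to 318.6 for Dcn. Pi16 and Col15a1 did not pass the test. The Thy1 and Tcf21 markers stayed at or below 12 counts in every library. Of the leukocyte markers, Ptprc, Adgre1, Itgam and C1qa were at or below 12 counts in every library, and the 8 genes together summed to 17.9 to 21.8 CPM in Control and 16.2 to 17.3 CPM in miR-322/-503. The other 4, Csf1r, Cd68, Lyz2 and Cd14, were tested, and 2 were lower by adjusted p in edgeR, Lyz2 (at least 8.55-fold against a floor of 12 counts per library, adjusted p = 0.00289) and Cd14 (log2 fold change -0.34, adjusted p = 0.0362). The 5 endothelial markers summed to 1.03 to 1.30 CPM and 3.75 to 5.07 CPM, with Pecam1, Cdh5, Kdr and Emcn at or below 12 counts in each library, so that nearly the whole sum and its difference came from Tek (log2 fold change 1.899, adjusted p = 0.000342, edgeR), and the 8 bone and cartilage markers summed to 120 to 127 CPM and 123 to 136 CPM. Most of the latter sum came from Runx2 and Sox9, and of the 5 tested genes of that list Comp (at least 14.6-fold, adjusted p = 0.000464, edgeR) and Alpl (log2 fold change -2.76, adjusted p = 0.0135) were lower and Sox9 (0.30, adjusted p = 0.0254) was higher. Lyz2, Comp and Alpl would not have passed the count filter by their miR-322/-503 libraries, so their being tested depended on their Control level. The muscle, fibroblast, leukocyte and endothelial sums did not overlap between the groups, and their part in the results below was not tested. In bulk RNA, fewer cells of a type and less RNA per cell cannot be told apart.

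In miR-322/-503 cells, transcripts of the gelatinase Mmp2 and of the inhibitor Timp3 were several fold lower than in Control, those of the inhibitor Timp2 were raised, and those of Mmp14, Mmp19 and Timp1 did not pass the test. Mmp10 was raised from a level near the detection limit. A gene was called when the p given by edgeR's quasi-likelihood method was below 0.05 after Benjamini-Hochberg adjustment and its log2 fold change (miR-322/-503 against Control) was beyond 1 in either direction. Of the 8 tested members, 2 were called lower (Mmp2 and Timp3), against a background of 5.29% of 18140 tested genes, and 1 was called higher (Mmp10, which would not have passed the count filter by its Control libraries), against 4.59%. By adjusted p alone, 2 were lower, against 15.5%, and 2 were higher (Timp2 and Mmp10), against 13.2%. The groups did not overlap for 5 of the 8, whereas this held for 45.1% of all tested genes. The median log2 fold change of the 8 was -0.14, beside -0.01 over all tested genes.

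**Figure D1:**
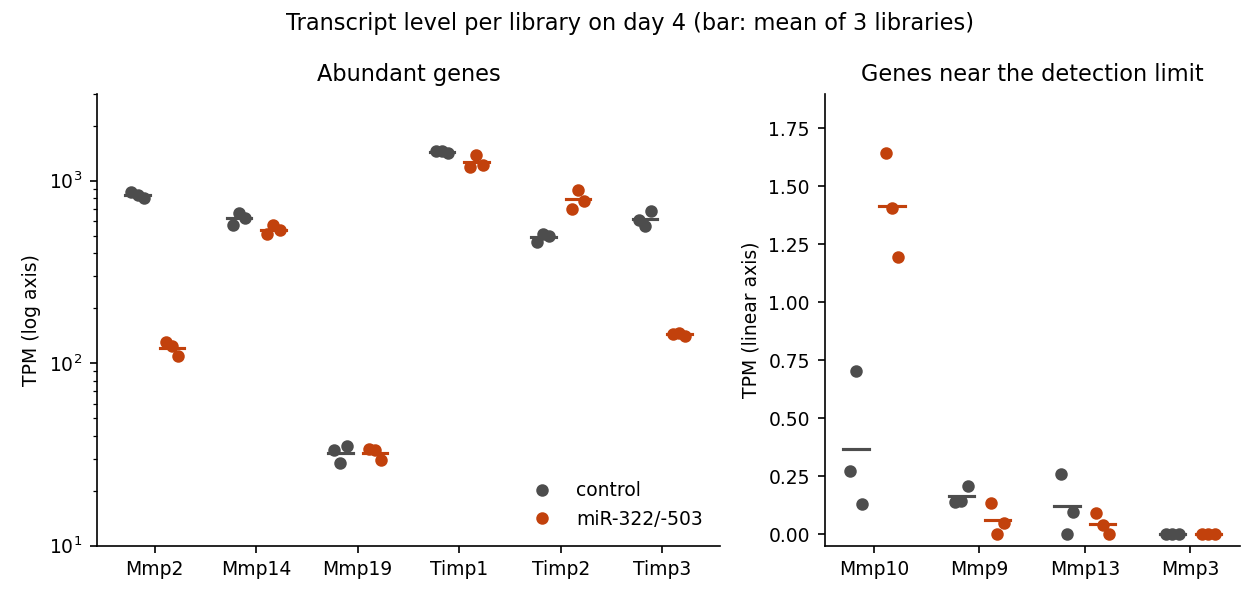
Level of each member in TPM (reads per transcript length, scaled to a common library total) in each library on day 4, with a point for each of the 3 Control and 3 miR-322/-503 libraries and a bar at their mean, on a log axis for the abundant genes and a linear axis for those near the detection limit. Mmp2 lies at 803 to 871 TPM in Control and 109 to 131 TPM in miR-322/-503, Timp3 at 560 to 678 TPM and 140 to 146 TPM, and the points of Mmp19 overlap between the groups.

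Measured per transcript length, as TPM, the members fell into an abundant and a scarce set. In Control the order of the mean levels was Timp1 at 1440 ± 23.3 TPM (SD, n = 3), Mmp2 at 834.5 ± 34.3, Mmp14 at 620.5 ± 47.6, Timp3 at 614.6 ± 59.0, Timp2 at 490.0 ± 26.4 and Mmp19 at 32.3 ± 3.43. The ranges of neighbours in that order did not overlap, with the exception of Mmp14 and Timp3. In miR-322/-503 the order was Timp1 at 1262 ± 106 TPM, Timp2 at 787.9 ± 97.2, Mmp14 at 538.5 ± 31.5, Timp3 at 143.6 ± 3.09, Mmp2 at 121.5 ± 11.2 and Mmp19 at 32.2 ± 2.28, and no neighbours overlapped. Mmp2 thus moved from rank 2 to rank 5 among the members, Timp2 from rank 5 to rank 2, and Timp1 headed both orders. Mmp10, Mmp9, Mmp13 and Mmp3 made up the scarce set in both groups, with means of at most 0.37 TPM in Control and 1.42 TPM in miR-322/-503.

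The gelatinases Mmp2 and Mmp9 cut denatured collagen and the type IV collagen of basement membranes. Mmp2 (ENSMUSG00000031740, chr8:92827291-92853420, plus strand, GRCm38) stood at 1378, 1334 and 1293 CPM in the Control libraries and at 208.7, 197.0 and 185.1 CPM in the miR-322/-503 libraries. All 3 miR-322/-503 values lay far below the lowest Control value, and the spread within each group was small, with a coefficient of variation of 3.20% in Control and 5.99% in miR-322/-503. The fitted log2 fold change of Mmp2 was -2.76 (SE 0.07, 95% interval -2.92 to -2.61), a 6.78-fold reduction, with an adjusted p of 6.56e-07 in edgeR's quasi-likelihood test. Mmp9 held 9, 21 and 13 estimated counts in Control and 10, 0 and 7 in miR-322/-503. Mmp9 was thus close to the detection limit in both groups. Scaled to CPM its groups did not overlap, at 0.12 to 0.25 in Control and 0 to 0.10 in miR-322/-503, but it did not reach the count filter and was not tested.

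The stromelysins Mmp3 and Mmp10 have a broad range of matrix substrates and can activate other metalloproteinase precursors, and the collagenase Mmp13 cuts fibrillar collagen. Mmp3 had 0 counts in all 6 libraries. Mmp10 (ENSMUSG00000047562, chr9:7502352-7510240) held 19, 54 and 10 counts in Control and 141, 95 and 87 counts in miR-322/-503. Its groups did not overlap, although the Control libraries differed more from each other than the miR-322/-503 libraries did. The log2 fold change of Mmp10 was 1.93 with a wide 95% interval of 0.62 to 3.25 (SE 0.56, adjusted p = 0.0379, edgeR). Its Control libraries alone would not have passed the count filter, so its being tested depended on the higher direction. This call also rested on few read pairs and on single libraries, since with 1 library left out in turn the adjusted p of Mmp10 in edgeR lay between 0.00549 and 0.114, and it stayed below 0.05 only when Control replicate 2, the highest Control library, was the one left out (log2 fold change 2.83). Mmp13 held 28, 0 and 12 counts in Control and 12, 4 and 0 in miR-322/-503, the groups overlapped, and its log2 fold change of -1.41 had an interval of -4.63 to 1.80 and depended on single libraries, at -0.22 without Control replicate 1 and -2.58 without miR-322/-503 replicate 1.

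Mmp3, Mmp10 and Mmp13 lie within a cluster of 10 metalloproteinase genes that spans 427 kb of chromosome 9 (chr9:7272514-7699585). Of the 10 genes, 5 had no count in any library, 3 (Mmp7, Mmp8 and Mmp12) reached at most 9 counts, and only Mmp10 and Mmp13 exceeded 12 counts in a library. The promoters of several of these genes are known to carry a site for activator protein 1 (AP-1), the dimer of Fos and Jun proteins. The letters TGAGTCA and TGACTCA, which are each other's reverse complement, were searched on both strands in RefSeq windows from 250 bases before to 50 bases after each gene start (GRCm38.p6). Windows were found for 7 of the 10 members, those other than Mmp2, Mmp9 and Mmp19, and 3 of the 7 held the motif, compared with 5.20% of all 32851 windows. The 3 stretches are shown because all come from this cluster, with the motif in capitals, on the plus strand at chr9:7445765-7445794 (Mmp3), chr9:7502268-7502297 (Mmp10) and chr9:7272468-7272497 (Mmp13).
Mmp3 promoter: ggaagcaattaTGAGTCAgttttcgggtga
Mmp10 promoter: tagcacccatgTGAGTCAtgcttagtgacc
Mmp13 promoter: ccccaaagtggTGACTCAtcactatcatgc
The motif ended 40 bases before the RefSeq gene start in Mmp3, 57 bases before it in Mmp10 and 29 bases before it in Mmp13. The windows of Mmp14, Timp1, Timp2 and Timp3 did not hold these letters. The 3 genes with the motif stood at different levels, Mmp3 at 0, Mmp13 near the detection limit and Mmp10 raised in miR-322/-503. No binding to these windows was measured in these libraries.

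The membrane-type enzyme Mmp14 was the most abundant metalloproteinase after Mmp2 in Control. Mmp14 (ENSMUSG00000000957, chr14:54431612-54445364) stood at 696.8, 770.4 and 734.1 CPM in Control and at 624.8, 743.0 and 662.3 CPM in miR-322/-503. On this scale the groups overlapped, whereas in TPM, at 572 to 667 in Control and 508 to 571 in miR-322/-503, they did not. The log2 fold change of Mmp14, -0.12, had a 95% interval of -0.30 to 0.06 (adjusted p = 0.316, edgeR). Mmp19 (ENSMUSG00000025355, chr10:128790910-128800824), a secreted enzyme outside the classical groups, stood at 47.1, 41.8 and 49.7 CPM in Control and at 47.9, 47.4 and 48.5 CPM in miR-322/-503. Its interval, -0.12 to 0.23 around a log2 fold change of 0.05 (adjusted p = 0.655, edgeR), is narrow, so a change of the size seen in Mmp2 lay outside it. Mmp19 overlaps Tmem198b on the other strand, which was at 37.9 to 40.6 CPM in Control and 33.9 to 40.3 CPM in miR-322/-503, and the antisense gene Gm47093, which held 6 to 18 counts and 0 to 39 counts. Whether reads were counted by strand was not given in the sources used here, so reads from overlapping genes cannot be told apart.

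Of the 3 inhibitors, Timp3 fell, Timp2 rose and Timp1 did not pass the test. Timp3, the inhibitor that binds to the extracellular matrix and also blocks several ADAM and ADAMTS proteases (ENSMUSG00000020044, chr10:86300372-86349506), stood at 1481, 1396 and 1687 CPM in Control and at 355.4, 358.7 and 368.1 CPM in miR-322/-503. The miR-322/-503 libraries lay close together, with a coefficient of variation of 1.83%, and far below all Control libraries. The log2 fold change of Timp3 was -2.08 (SE 0.08, 95% interval -2.26 to -1.89), a 4.22-fold reduction, with an adjusted p of 3.84e-06 in edgeR. Syn3, which overlaps Timp3 on the other strand, held 14 to 47 counts in Control and 17 to 104 counts in miR-322/-503, few beside Timp3, whose lowest library held 26894 counts.

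Timp2 (ENSMUSG00000017466, chr11:118301069-118355740, minus strand) stood at 889.6, 1006 and 975.2 CPM in Control and at 1340, 1721 and 1605 CPM in miR-322/-503. Each miR-322/-503 library was above each Control library, by a log2 fold change of 0.70 (SE 0.10, 95% interval 0.47 to 0.93, adjusted p = 0.00158, edgeR), a 1.63-fold increase that was below the size limit for a call. Cep295nl, which overlaps Timp2 on the same strand, was scarce at 1.40 to 2.18 CPM in Control and 1.41 to 1.68 CPM in miR-322/-503. Timp1, a soluble inhibitor of most secreted metalloproteinases (ENSMUSG00000001131, chrX:20870166-20874735), stood at 652.4, 662.8 and 643.9 CPM in Control and at 531.5, 621.8 and 585.8 CPM in miR-322/-503. These groups did not overlap, but the difference, a log2 fold change of -0.17 with an interval of -0.33 to -0.01, did not pass the threshold (adjusted p = 0.102, edgeR). Timp1 lies within an intron of Syn1 on the opposite strand, and Syn1 rose from between 21.2 and 25.1 CPM in Control to between 39.2 and 47.0 CPM in miR-322/-503 (log2 fold change 0.89, adjusted p = 0.000516, edgeR).

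**Figure D2:**
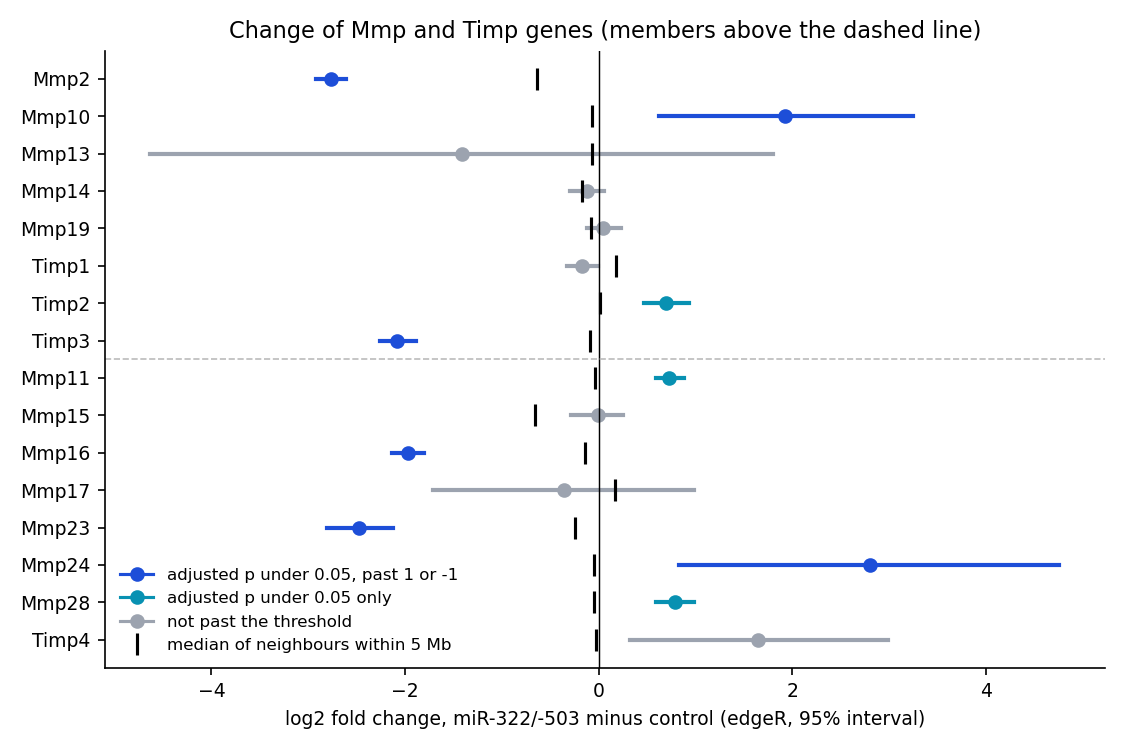
Log2 fold change (miR-322/-503 minus Control) with its 95% interval from edgeR for the 8 tested members and the other 8 tested family genes, coloured by call, with a tick at the median of the tested genes within 5 Mb of each. Mmp2 (-2.76) and Timp3 (-2.08) lie far from 0 with narrow intervals, while the interval of Mmp10 runs from 0.62 to 3.25.

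Because the members moved unequally, the make-up of the metalloproteinase and inhibitor transcripts differed between the lines. The summed level of the 7 metalloproteinases was 1488 ± 34.5 TPM (SD, n = 3) in Control and 693.7 ± 31.4 TPM in miR-322/-503, and that of the 3 inhibitors was 2544 ± 37.3 and 2194 ± 202 TPM. Neither sum overlapped between the groups. The ratio of inhibitor to metalloproteinase transcripts was 1.71, 1.65 and 1.77 in the Control libraries and 3.01, 3.32 and 3.15 in the miR-322/-503 libraries. Mmp2 supplied 56.1% ± 2.49 of the metalloproteinase sum in Control and 17.5% ± 1.70 in miR-322/-503, whereas Mmp14, whose own level did not pass the test, supplied 41.7% ± 2.61 and 77.6% ± 2.06. Among the inhibitors, the share of Timp1 overlapped between the groups at 56.6% ± 1.73 and 57.6% ± 0.81. The share of Timp2 was 19.3% ± 1.001 in Control and 35.9% ± 1.32 in miR-322/-503, and that of Timp3 was 24.1% ± 1.998 and 6.58% ± 0.56. These shares follow from the levels given above and were not tested. They are transcript shares and do not measure protein or enzyme activity.

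For the 3 genes whose products form the activating complex on the cell surface, the ratios shifted in all libraries. Timp2 transcripts were 0.53 to 0.62 times those of Mmp2 in Control and 5.31 to 7.18 times in miR-322/-503. Against Mmp14, Timp2 was at 0.77 to 0.81 times in Control and 1.37 to 1.56 times in miR-322/-503. The ratio of Mmp14 to Mmp2 went from 0.66 to 0.80 in Control to 3.88 to 4.90 in miR-322/-503. No range of these 3 ratios overlapped between the groups.

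**Figure D3:**
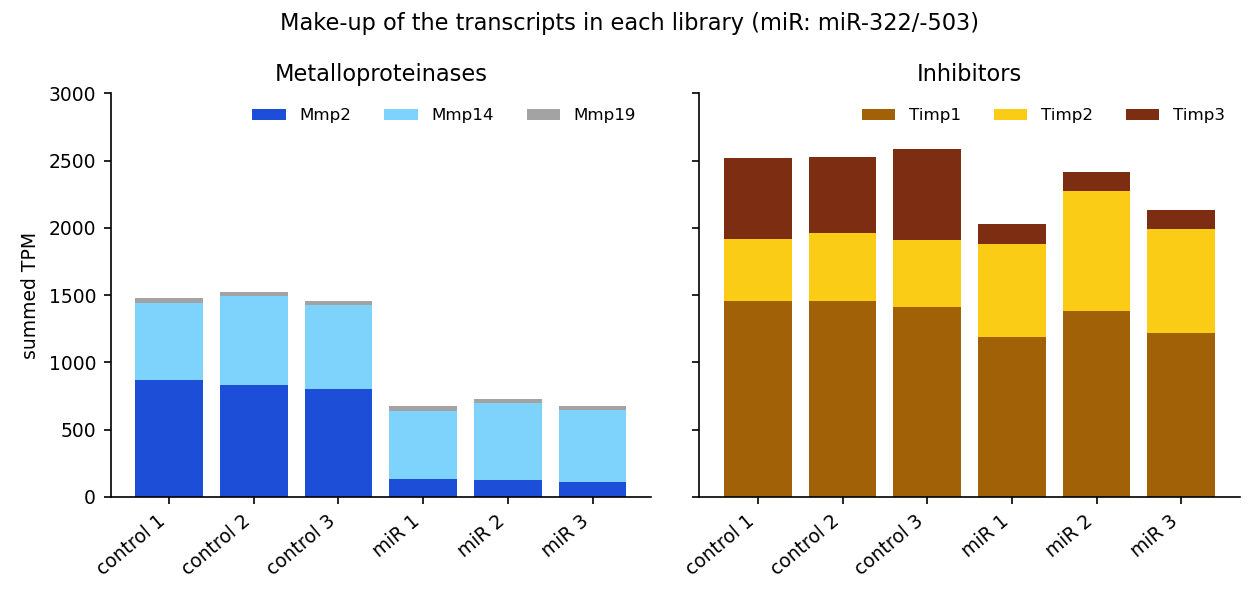
Stacked bars of summed TPM in each of the 6 libraries, with the metalloproteinase members and the inhibitor members in separate panels and each gene in its own colour and the scarce members left out. The Mmp2 segment shrinks from 803 to 871 TPM in Control to 109 to 131 TPM in miR-322/-503 beneath a Mmp14 segment of 508 to 667 TPM, and among the inhibitors the Timp3 segment is smaller and the Timp2 segment larger in miR-322/-503.

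The other 17 genes of the metalloproteinase and inhibitor families were all scarcer than Mmp2, Mmp14, Timp1, Timp2 and Timp3. Of these, 9 held at most 9 counts in every library and were not tested. Among the 8 tested, Mmp16, a membrane-type enzyme, stood at 43.7, 44.4 and 44.5 CPM in Control and 11.27, 11.02 and 11.65 CPM in miR-322/-503, a log2 fold change of -1.97 (SE 0.07, adjusted p = 3.12e-06, edgeR). Mmp23, an enzyme anchored by its amino end, stood at 12.7, 10.1 and 9.70 CPM in Control and 2.11, 1.88 and 1.89 CPM in miR-322/-503, a log2 fold change of -2.47 (SE 0.15, adjusted p = 2.72e-05, edgeR). Both were called lower, and their groups were far apart. Mmp11, also named stromelysin-3, rose from 36.3 to 39.2 CPM in Control to 59.9 to 63.9 CPM in miR-322/-503 (log2 fold change 0.73, adjusted p = 0.000127, edgeR), and Mmp28 from 14.2 to 15.7 CPM to 24.0 to 26.6 CPM (0.79, adjusted p = 0.000454). Mmp24, a membrane-type enzyme with 4, 0 and 6 counts in Control and 28, 21 and 23 in miR-322/-503, was called higher and was at least 1.99-fold higher against a floor of 12 counts per library (adjusted p = 0.0431, edgeR). It passed the count filter only through the miR-322/-503 libraries, so its being tested depended on that direction. Mmp15, another membrane-type enzyme, had a log2 fold change of -0.01 with an interval of -0.28 to 0.25, and Mmp17 one of -0.36 with an interval of -1.71 to 0.99. Timp4, the remaining inhibitor, was scarce at 0.04 to 0.17 CPM in Control and 0.35 to 0.39 CPM in miR-322/-503 and did not pass the test (log2 fold change 1.65, adjusted p = 0.0675, edgeR). By its Control libraries alone Timp4 would not have passed the count filter, so its being tested also depended on the higher direction. The summed level of the other metalloproteinase genes overlapped between the groups, at 99.3 ± 7.29 TPM in Control and 93.1 ± 6.51 TPM in miR-322/-503.

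The position of each member was then set beside the genes around it. Around Mmp2 the neighbours were also lower. The 91 other tested genes that start within 5 Mb of Mmp2 had a median log2 fold change of -0.64, with 87.9% below 0, 14 called lower (5.29% of all tested genes were) and 1 called higher. Relative to that median, Mmp2 was at -2.12, and 5 of the 91 neighbours had a lower fitted fold change than Mmp2. Among these, Ces1g and 4930488L21Rik were known only as at least 5.22-fold and 1.11-fold lower against the floor of 12 counts per library. Both bounds are smaller than the 6.78-fold reduction of Mmp2, so the order of these genes against Mmp2 is not known. Around the other members, the medians within 5 Mb were -0.17 for Mmp14, -0.09 for Timp3, -0.08 for Mmp19, -0.07 for the 21 genes around the chromosome 9 cluster, -0.06 for Mmp9, 0.01 for Timp2 and 0.18 for Timp1. Over all 953 tested genes of chromosome 8 the median was -0.03. Mmp15 starts 2.52 Mb from Mmp2 on the same chromosome, with a median of -0.66 over its own neighbours and a log2 fold change of -0.01 itself, so 73 of its 84 neighbours lay below it.

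Of the 5 neighbours with a lower fitted fold change than Mmp2, 4 lie downstream within 0.92 Mb of it, Ces1g and 4930488L21Rik, whose order against Mmp2 is not known, included. The other, Nkd1, lies 4.3 Mb on the other side (log2 fold change -3.61, adjusted p = 0.0066, edgeR). The genes named in this paragraph were singled out after their values were seen. From Mmp2 over the next 0.92 Mb, 6 genes were tested, Mmp2 included, and each was lower at an adjusted p under 0.05 in edgeR. Among them, Capns2, Ces1g and 4930488L21Rik would not have passed the count filter by their miR-322/-503 libraries and entered the tested set through Control, so the count of 6 is partly set by the filter. Lpcat2, an enzyme that remodels phospholipids, held 399, 401 and 507 counts in Control and 63, 43 and 59 in miR-322/-503 (log2 fold change -2.99). Capns2, a small calpain subunit whose gene lies inside Lpcat2, so that their reads may not be separable, held 108, 105 and 126 counts in Control and 7, 16 and 4 in miR-322/-503 (-3.61). Slc6a2, the noradrenaline transporter, stood at 30.9, 30.9 and 31.8 CPM in Control and 10.7, 5.31 and 4.71 CPM in miR-322/-503 (-2.17), with miR-322/-503 replicate 1 above the other libraries of its group. The esterase gene Ces1g held 62, 72 and 55 counts in Control and 0, 0 and 4 in miR-322/-503, at least 5.22-fold lower against the floor of 12 counts per library. The non-coding gene 4930488L21Rik, with 16, 12 and 12 counts in Control and 0 in all 3 miR-322/-503 libraries, was at the detection limit in both groups. Past these, Gnao1, which starts 0.98 Mb from Mmp2, had a log2 fold change of -0.90, and on the other side Irx5, which starts 0.47 Mb before Mmp2, had one of -0.60 and Gm3272, which starts 0.11 Mb before it, one of 0.16 (adjusted p = 0.237, edgeR). The neighbours hold different genes and were not chosen for their function, and whether the level of Mmp2 and theirs share a source was not tested.

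**Figure D4:**
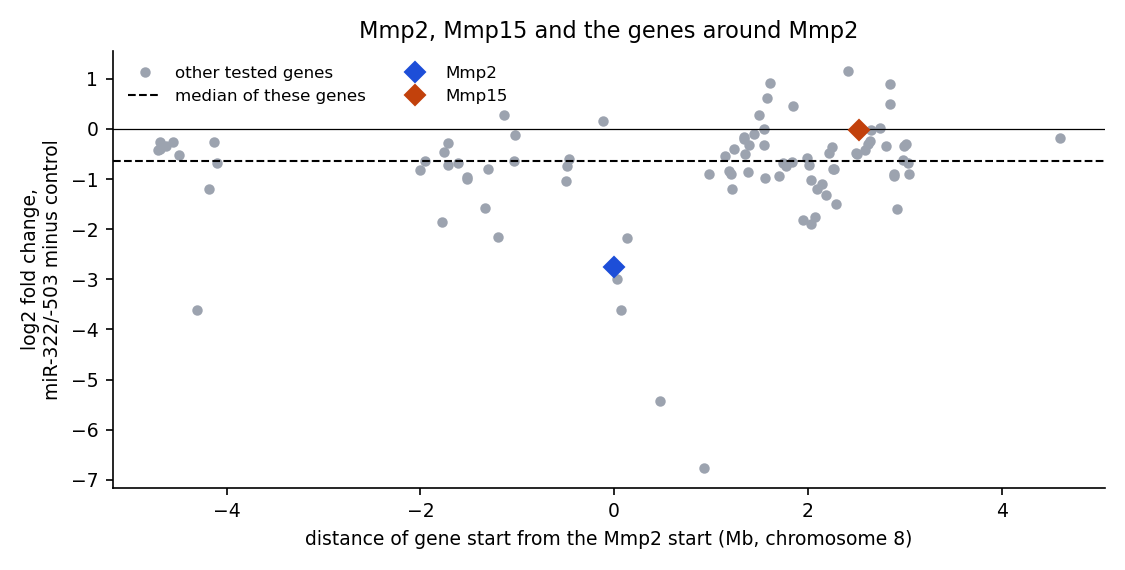
Log2 fold change of Mmp2, Mmp15 and the other tested genes against the distance of each gene start from the start of Mmp2 in Mb on chromosome 8, with a dashed line at the median of the neighbours. The median lies at -0.64, Mmp2 at -2.76 is among the lowest points, and Mmp15 at -0.01 lies above most of its neighbours.

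Genes that act with or on these enzymes were examined in 5 lists of known function, each given by its counts, to be read beside the 15.5% of all tested genes that were lower and the 13.2% that were higher at an adjusted p under 0.05, and the 5.29% and 4.59% that were called. From each list up to 4 called genes are named by the size of their change, and Reck, Jun, Fosl1, Fosl2, Jund, Pdgfrb, Tnf, Tnfrsf1a, Tnfrsf1b, Col4a2, Col1a1, Col1a2, Vcan, Nid1 and Lama2 were added after their values were seen. Among 12 genes that activate or anchor metalloproteinases or plasmin, 10 were tested, of which 2 were lower and 4 higher at an adjusted p under 0.05 in edgeR, with a median log2 fold change of 0.06. Plau, the urokinase that makes plasmin, was at 58.6 to 65.5 CPM in Control and 164.8 to 175.4 CPM in miR-322/-503 (log2 fold change 1.45, adjusted p = 6.07e-06, edgeR). Pcsk6, a proprotein convertase, was at 11.1 to 12.4 CPM in Control and 1.21 to 2.25 CPM in miR-322/-503 (-2.76, adjusted p = 9.57e-05). The activating side therefore held genes that moved in opposite directions. Among 12 genes that restrain proteases, other than the tissue inhibitors, 8 were tested, of which 6 were lower and 1 was higher, with a median of -0.74. Serpine2, an inhibitor of thrombin and urokinase, fell from 83.6 to 86.8 CPM in Control to 22.0 to 26.4 CPM in miR-322/-503 (log2 fold change -1.80, adjusted p = 6.34e-06, edgeR). Spock2, a secreted proteoglycan that is known to counter the inhibition of membrane-type enzymes by its relatives, so that its place in this list is doubtful, fell from 88.9 to 98.2 CPM to 29.7 to 33.6 CPM (-1.56), while Serpinb2, an inhibitor of urokinase, rose from 1.28 to 1.95 CPM to 4.95 to 7.499 CPM (2.01). Reck, the membrane-anchored inhibitor of several metalloproteinases, had a log2 fold change of -0.70 with an adjusted p of 0.00134 in edgeR.

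Of 20 regulators that are known to act at metalloproteinase promoters, 19 were tested, of which 5 were lower and 6 higher at an adjusted p under 0.05, with a median of 0.00. The 4 called genes were all lower. They were immediate early genes, with log2 fold changes of -5.51 for Fosb, -3.72 for Fos, -2.04 for Junb and -1.72 for Egr1. Fos was at 306.6 to 358.5 CPM in Control and 20.8 to 32.1 CPM in miR-322/-503. Within the AP-1 proteins the directions differed, since Jun (0.57, adjusted p = 0.00126, edgeR) and Fosl1 (0.36, adjusted p = 0.0118) were higher and Fosl2 and Jund did not pass the test. Of 26 ligands and receptors known to induce metalloproteinases, 25 were tested, of which 10 were lower and 3 higher, with a median of -0.11. Called lower were Pdgfb (log2 fold change -2.21), Hgf (-1.76), Egfr (-1.39), Tgfb3 (-1.24) and Pdgfrb (-1.18). Tnf, which encodes tumour necrosis factor, had a log2 fold change of 1.81 that did not pass the test (adjusted p = 0.0652, edgeR), its receptor gene Tnfrsf1a had one of -0.15 (adjusted p = 0.204) and Tnfrsf1b was lower (-0.71, adjusted p = 7.54e-05).

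Among 23 matrix proteins that metalloproteinases cut, 21 were tested, of which 14 were lower and 4 higher at an adjusted p under 0.05, 8 of the 14 were called lower, and the median log2 fold change was -0.59. The type IV collagen chain Col4a1, a substrate of Mmp2 in basement membranes, was at 535.6 to 586.6 CPM in Control and 109.1 to 131.8 CPM in miR-322/-503 (log2 fold change -2.17), and its partner Col4a2 had a log2 fold change of -1.82. Fmod, a proteoglycan that binds collagen fibrils, fell from 322.5 to 424.9 CPM to 15.4 to 17.2 CPM (-4.50, adjusted p = 1.11e-06, edgeR). Elastin (Eln) was at 2.22 to 3.49 CPM in Control and had 0 counts in every miR-322/-503 library, at least 20-fold lower against the floor of 12 counts per library, and vitronectin (Vtn) was at least 2.55-fold lower. Both passed the count filter only through their Control libraries. The 4 genes that rose were Col1a1 (0.53), Vcan (0.79), Nid1 (0.51) and Lama2 (0.20). The chains of type I collagen differed in direction, with Col1a2 at -1.19. As with the members, the fibroblast marker sum given above, with its largest difference in Cd34, was lower in the same libraries. Its part in these values was not tested.

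**Figure D5:**
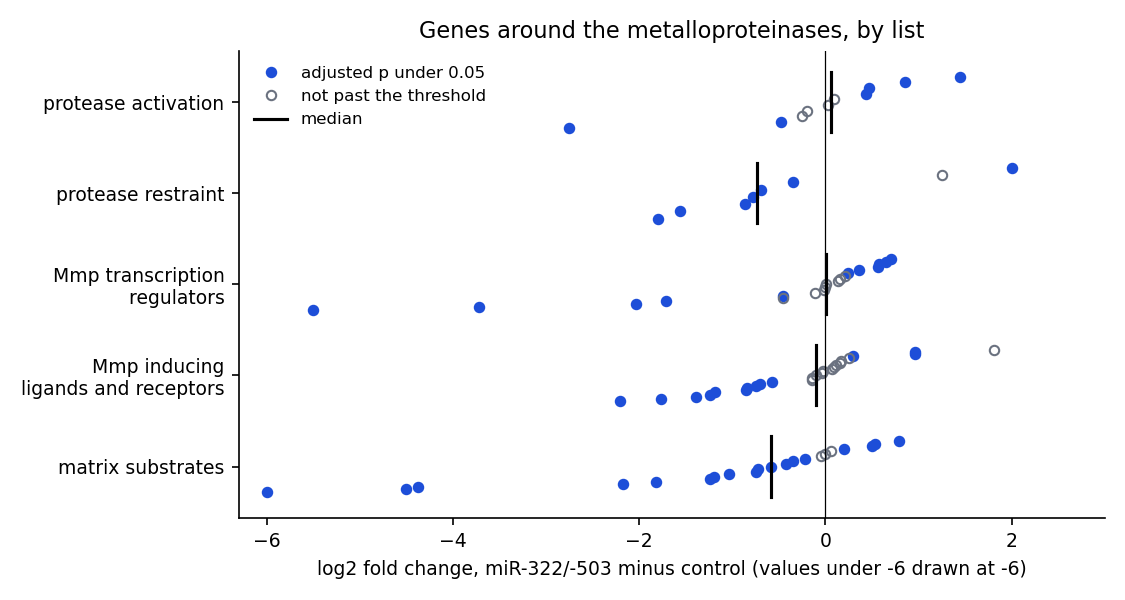
Log2 fold change of each tested gene in the lists of protease activation, protease restraint, transcription regulators, inducing ligands and receptors and matrix substrates, with filled points for genes at an adjusted p under 0.05 in edgeR and open points for the rest, a line at each median, and values under -6 (Eln) drawn at -6. Most points of the restraint list and of the substrate list lie below 0 (medians -0.74 and -0.59), while the other lists spread to both sides.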

How the data were processed

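RNA was sequenced from 6 libraries, 3 per group, by the labels' cell line and genotype. For the alignment to GRCm38 the authors used HISAT2 after trimming by Trim Galore, and StringTie gave the gene values (versions are not given in the sources used here). The deposited matrix holds estimated counts per gene, whole numbers of about 75 bases of covered transcript each, so that 1 read pair gave about 4 counts, which was worked out from the coverage signal in the deposited per-library tables. Those tables also hold FPKM and TPM as the authors' StringTie runs gave them. The depth was 18383021 to 23039347 read pairs per library, and counting error is larger than its nominal size since counts come in groups of 4. Columns without a sample numbered 0.

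Counts were normalized by TMM, filtered with edgeR's filterByExpr and tested with edgeR 4.0.16 (quasi-likelihood F test, R 4.3.3), with Benjamini-Hochberg adjustment over 18140 genes. The study used DESeq2 with the same thresholds, and DESeq2 1.42.0 and limma 3.58.1 on log2(TPM + 1) served as alternatives, beside other scalings, other filters, the replicate number as a block and leaving out each library. CPM are counts relative to the TMM-scaled library total. The scripts were tested on simulated data. Between replicates of 1 group, chi-square divided by its degrees of freedom was 13.4 to 19.4, computed on counts divided by 4. This is above the value of about 1 that counting error of read pairs alone would give. It does not tell technical from biological replicates.

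The members and lists were chosen with earlier results of these data known. Named were all members, all tested family genes, up to 4 called genes per list by size of change and the genes overlapping a member, and any other gene was named after its values were seen. Neighbours were tested genes starting within 5 Mb. Untranslated regions came from the longest annotated 3′ region of each gene of at least 50 bases, and promoter windows from RefSeq.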

Additional observations from a re-analysis of the deposited data

How the results depend on the processing

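Of 118 values of the 8 tested members under the alternatives, 109 kept their direction and their side of the adjusted p threshold, 6 kept the direction but no longer passed it, all of Mmp10, and 3 changed sign, all of Mmp19. The size limit for a call was not part of this count. The 109 therefore include Mmp10 with limma on log2(TPM + 1), where it was no longer called. Mmp2 ranged from -2.80 to -2.72, Timp3 from -2.14 to -1.997 and Timp2 from 0.62 to 0.80 on the log2 scale. Mmp13 passed the threshold under none of its alternatives and ranged from -2.58 (without miR-322/-503 replicate 1) to -0.22 (without Control replicate 1) with 1 library left out, and was at -0.10 with limma on log2(TPM + 1). Mmp19, near 0 throughout, was at -0.002 with limma on log2(TPM + 1) and on log2(TPM + 0.1) and between -0.017 and 0.109 with 1 library left out in turn, below 0 only without Control replicate 2. Members called higher numbered 0 without a filter on low counts (Mmp10 adjusted p = 0.0537, edgeR, where more genes are tested) and 0 with limma on log2(TPM + 1), whose pseudocount shrinks the fold of scarce genes (Mmp10 0.84), and members higher by adjusted p numbered 1 without that filter. With 1 library left out in turn, members called lower numbered 2 in each case, members called higher 0 to 1, members higher by adjusted p 1 to 2, and the inhibitor to metalloproteinase ratio ranged from 1.68 to 1.74 in Control and from 3.08 to 3.23 in miR-322/-503. That ratio was 1.60 in Control and 2.79 in miR-322/-503 when all family genes were summed. Within 2 Mb in place of 5 Mb, the median around Mmp2 was -0.68. Over all genes, calls went from 959 lower and 832 higher to 564 and 391 with limma on log2(TPM + 1).

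Replicate numbers were shared between the groups, and same-numbered libraries correlated at 0.241, 0.137 and 0.096 in their deviations from the group means. These values are positive, but different-numbered libraries were not compared, so they do not decide whether the numbers pair the libraries. The main test used no pairing. With the replicate block, 2 members were called lower, 1 was called higher (Mmp10 2.20, adjusted p = 0.0336, edgeR), 2 were lower and 2 higher by adjusted p, and 893 genes were called lower and 747 higher. Over all genes, 5733 had an adjusted p under 0.05 in edgeR with the block and 5218 without it. Depth limits Mmp3, Mmp9, Mmp10 and Mmp13, whose libraries held at most 141 counts, and each group is 1 stable line.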
